A study of Homo sapiens with 4 samples.

Results

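The 9 genes described here encode enzymes of asparagine, proline, cysteine, glutathione and glutamate metabolism, and they were found by symbol among the 78932 Ensembl gene rows of the count table. They are ASNS, CBS, CTH, CHAC1, ALDH18A1, PYCR1, GOT1, GPT2 and PCK2, and each symbol had 1 row. The study sequenced RNA of a human multiple myeloma cell line, written RPMI82266 in the labels and read here as the established line RPMI8226, which derives from malignant plasma cells. The cells had been transfected with an LNA ASO, a short antisense oligonucleotide stiffened by locked sugars that pairs with a chosen RNA. One group carried an ASO against CELF2, an RNA-binding protein of splicing and mRNA stability, at 5 nM, and the other carried a control LNA ASO whose dose the labels do not give. Both groups were taken at 72 hours with 2 libraries each, and the number in a library's label may stand for a replicate or for an oligonucleotide. Separate cultures are not mentioned in the labels, and p-values therefore cover only the differences among these libraries, whose source may be technical. In bulk RNA, fewer cells of a type and less RNA per cell cannot be told apart.

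These enzymes work around a common pool of glutamate, aspartate and serine carbon. ASNS moves nitrogen from glutamine onto aspartate to make asparagine. CBS joins serine to homocysteine, and CTH splits the product to release cysteine, which cells also place in glutathione. CHAC1 breaks glutathione down again. ALDH18A1 and PYCR1 turn glutamate into proline in mitochondria. GOT1 and GPT2 exchange amino groups between glutamate and aspartate or alanine, and PCK2 makes phosphoenolpyruvate from oxaloacetate in mitochondria. Several of these genes are known targets of ATF4, a transcription factor made when the amino acid supply falls or the endoplasmic reticulum is stressed, and plasma cells and myeloma cells carry a heavy load of secreted protein. ATF4 binds with C/EBP partners to a composite DNA element known from the ASNS promoter.

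Promoter sequences were searched for that element because ASNS and CHAC1 are known to carry it. RefSeq promoter windows on GRCh38.p14 (250 bases before to 50 bases after a start) were found for 7 of the 9 genes, as 10 windows in all. PYCR1 and GPT2 had no entry. The core TGATGNAA, searched on both strands, was present in windows of ASNS, CHAC1 and GOT1. It was also present in 1270 of all 35116 promoter windows (3.62%), and counted by gene in 1217 of 27305 genes (4.46%). The 3 matches are shown in the direction of the motif, 5′ to 3′, with the core in capitals and 11 bases on each side.
ASNS, chr7:97872458-97872487, motif on the strand of the gene: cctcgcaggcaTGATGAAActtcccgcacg
CHAC1, chr15:40953251-40953280, motif on the strand opposite to the gene: cctggcaggagTGATGCAAcggcaggggag
GOT1, chr10:99430804-99430833, motif on the strand opposite to the gene: gctgccgagaaTGATGCAAccaatgcaatt

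The core lay at bases -68 to -61 from the start of ASNS, -209 to -202 from that of CHAC1 and -198 to -191 from that of GOT1. The match in ASNS read TGATGAAA, and the matches in CHAC1 and GOT1 both read TGATGCAA. The whole windows of ASNS and CHAC1 are printed on the strand of each gene, so that the place of the element before the start is visible, with the core in capitals (in CHAC1 it is read as its reverse complement).
ASNS, chr7:97872359-97872658, minus strand: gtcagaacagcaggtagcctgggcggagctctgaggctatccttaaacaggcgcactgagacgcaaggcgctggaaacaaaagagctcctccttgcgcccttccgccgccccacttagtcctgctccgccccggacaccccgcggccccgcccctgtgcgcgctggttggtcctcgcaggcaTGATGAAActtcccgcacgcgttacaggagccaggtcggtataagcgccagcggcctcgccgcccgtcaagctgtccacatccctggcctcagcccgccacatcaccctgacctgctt
CHAC1, chr15:40953221-40953520, plus strand: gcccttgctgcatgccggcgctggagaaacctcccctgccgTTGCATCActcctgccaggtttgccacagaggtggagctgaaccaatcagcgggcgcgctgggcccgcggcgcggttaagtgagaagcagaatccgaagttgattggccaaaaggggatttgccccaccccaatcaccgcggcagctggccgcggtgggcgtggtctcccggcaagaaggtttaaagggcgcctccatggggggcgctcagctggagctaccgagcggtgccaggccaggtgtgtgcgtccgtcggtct

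The windows of CTH, CBS (3 windows), ALDH18A1 and PCK2 and the other ASNS window did not hold these letters. A cyclic AMP response element (TGACGTCA, both strands) was in none of the 10 windows, against 1.85% of all windows. An E-box (CACGTG, a palindrome, so both strands are 1 match) was in the ALDH18A1 window alone, at bases -136 to -131, against 7.26% of all windows. No motif overlapped another. A match is a description of the letters and not evidence of binding, and the windows reach no further than 250 bases before a start.

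Total counts were 23599190 to 26061900 in the CELF2 ASO libraries and 24493148 to 29161298 in the control libraries. CELF2 itself was lower with its ASO, at 56.6 and 48.8 CPM (read counts scaled to a common library size) beside 128 and 128 CPM with the control (log2 fold change -1.28, standard error 0.09, edgeR adjusted p = 2.88e-05). Of 19511 genes tested, 55.5% passed the threshold of an edgeR adjusted p of 0.05, with 27.5% higher and 27.9% lower, so a call alone says little about any gene here. Spread within the CELF2 ASO pair was wider (biological coefficient of variation 13.7%) than within the control pair (3.64%). All 10 plasma cell markers were detected, 4 of them higher (CD38, IRF4, SLAMF7 and IGLC2) and 4 lower (SDC1, TNFRSF17, PRDM1 and MZB1), with summed levels of 12010 to 12370 CPM in the CELF2 ASO libraries and 4485 to 5033 CPM in the control libraries. The immunoglobulin light chain gene IGLC2 alone made up 8505 to 8701 CPM with the CELF2 ASO and 1318 to 1654 CPM with the control. Without it, a split made after its values were seen, the other 9 summed to 3311 to 3861 CPM with the CELF2 ASO and 3167 to 3379 CPM with the control, and these ranges overlapped. The 6 T and NK cell markers summed to at most 0.721 CPM in any library. The 6 myeloid markers summed to 2.42 to 2.68 CPM with the CELF2 ASO and 4.86 to 4.94 CPM with the control, and 3 of them were at 0 in every library. The 6 stromal and epithelial markers summed to 86.9 to 87.2 CPM with the CELF2 ASO and 121 to 124 CPM with the control, with 2 of them lower. The part of these markers in the results was not tested.

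All 9 enzyme genes passed the filter on low counts. With the CELF2 ASO 7 rose, 1 fell and 1 did not pass the test, against 27.5% and 27.9% of all tested genes that rose and fell. The median log2 fold change of the 9 was 1.46, beside 0.04 over all tested genes. Changes of at least 4-fold upward were seen in 4 of the 9, CHAC1, CTH, PCK2 and ASNS, and in 4.18% of all tested genes. Libraries of the 2 groups did not overlap in 8 of the 9 genes, where this held for 79.6% of all tested genes, and 7 of these 8 were higher with the CELF2 ASO. Among all tested genes, 41.2% were higher with no overlap. Together the 9 genes took 0.113% and 0.0958% of counts in the CELF2 ASO libraries, against 0.0525% and 0.055% in the control libraries.

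**Figure D1:**
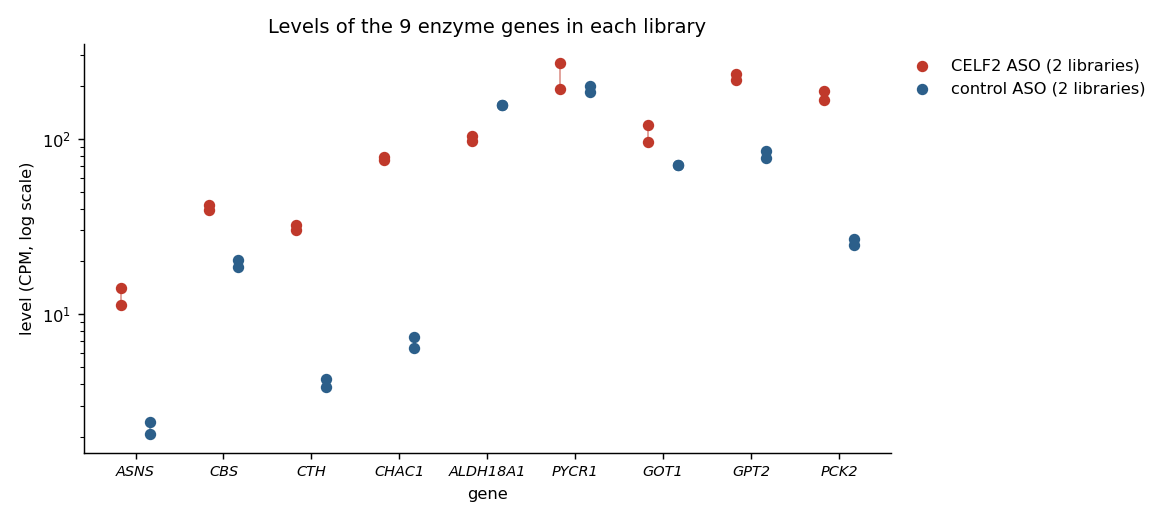
Level of each of the 9 enzyme genes in every library, in CPM on a log axis, with the 2 CELF2 ASO libraries left of the 2 control ASO libraries. The groups are farthest apart for CHAC1, CTH, PCK2 and ASNS, ALDH18A1 is lower with the CELF2 ASO, and the groups overlap for PYCR1.

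ASNS (asparagine synthetase, ENSG00000070669, GRCh38 chromosome 7, 97852118 to 97872542, minus strand) had 14.1 and 11.3 CPM with the CELF2 ASO and 2.07 and 2.43 CPM with the control. Both CELF2 ASO libraries lay well above both control libraries. This was a 5.66-fold rise (log2 fold change 2.50, standard error 0.18, edgeR adjusted p = 3.31e-05). The counts behind it were small, 390 and 270 against 58 and 57. In GENCODE 29, 44.6% of the exon bases of ASNS also belong to exons of a readthrough gene on the same strand, ENSG00000284707, which had 26 and 22 counts with the CELF2 ASO and 5 and 3 with the control. How the authors' counting treated reads in the shared exons is not given in the sources used here, so the absolute level of ASNS is uncertain. With the rows of both genes added, an alternative chosen after seeing the data, the log2 fold change was 2.51.

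Both enzymes that make cysteine from homocysteine rose, and the second far more than the first. CBS (cystathionine beta-synthase, ENSG00000160200, chromosome 21, 43053191 to 43076943, minus strand) had 42.2 and 39.0 CPM with the CELF2 ASO against 18.6 and 20.3 CPM with the control. It rose 2.09-fold (log2 fold change 1.06, standard error 0.10, edgeR adjusted p = 8.77e-05). CBSL, a near-identical copy of CBS on chromosome 21, had 21 and 10 counts with the CELF2 ASO and 10 and 12 with the control. With CBS and CBSL counts added the log2 fold change was 1.05. CTH (cystathionine gamma-lyase, ENSG00000116761, chromosome 1, 70411218 to 70439851, plus strand) had 32.1 and 30.2 CPM with the CELF2 ASO against 3.82 and 4.26 CPM with the control. CTH rose 7.71-fold (log2 fold change 2.95, standard error 0.12, edgeR adjusted p = 5.78e-06). In CPM, CTH stood below CBS in both groups. Per kilobase of exon, CTH stood above CBS with the CELF2 ASO (13.3 and 12.5 against 6.22 and 5.75 CPM per kb). It stood below CBS with the control (1.58 and 1.76 against 2.74 and 2.99 CPM per kb). The order with the CELF2 ASO thus depends on the merged exon lengths, 6786 bases for CBS and 2414 for CTH. Such lengths understate genes with long rarely used exons.

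CHAC1 (ENSG00000128965, chromosome 15, 40952962 to 40956519, plus strand), which cleaves the gamma-glutamyl bond of glutathione, showed the largest rise of the 9 genes. It had 79.1 and 75.5 CPM with the CELF2 ASO against 6.43 and 7.42 CPM with the control. The rise was 11.2-fold (log2 fold change 3.48, standard error 0.10, edgeR adjusted p = 2.63e-06), at place 160 of 19511 when tested genes are ordered by log2 fold change. CHAC2, the paralog with the same activity on glutathione, went the other way, with 4.29 and 3.93 CPM in the CELF2 ASO libraries and 10.5 and 10.9 CPM in the control libraries (log2 fold change -1.38, standard error 0.14, edgeR adjusted p = 0.000153). Per kilobase, CHAC1 stood 11.8 and 12.3 times above CHAC2 with the CELF2 ASO and at 0.392 and 0.436 of it with the control. CHAC1 was thus the lesser of the pair in the control libraries and the greater in the CELF2 ASO libraries.

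The 2 proline enzymes did not rise with the others. ALDH18A1 (ENSG00000059573, chromosome 10, 95605929 to 95656706, minus strand), which reduces glutamate in the opening step of proline synthesis, had 104 and 96.8 CPM with the CELF2 ASO against 157 and 157 CPM with the control. It was the one gene of the 9 to fall, 1.56-fold (log2 fold change -0.64, standard error 0.07, edgeR adjusted p = 0.000287). PYCR1 (ENSG00000183010, chromosome 17, 81932384 to 81942412, minus strand), the mitochondrial reductase that completes proline, had 272 and 192 CPM with the CELF2 ASO against 185 and 201 CPM with the control. The second CELF2 ASO library lay between the control libraries, and the change did not pass (log2 fold change 0.27, standard error 0.16, edgeR adjusted p = 0.205). Without CELF2_LNA_ASO replicate 2 it passed (log2 fold change 0.48, edgeR adjusted p = 4.12e-19), and without CELF2_LNA_ASO replicate 1 the value was -0.0012 (edgeR adjusted p = 0.986), both in fits whose spread comes from the control pair alone.

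PYCR3, the cytosolic paralog of PYCR1, had 28.2 and 19.0 CPM with the CELF2 ASO against 72.3 and 71.3 CPM with the control (log2 fold change -1.60, standard error 0.17, edgeR adjusted p = 0.000393). Per kilobase, PYCR1 was 10.8 and 11.3 times the level of PYCR3 with the CELF2 ASO and 2.88 and 3.17 times with the control.

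**Figure D2:**
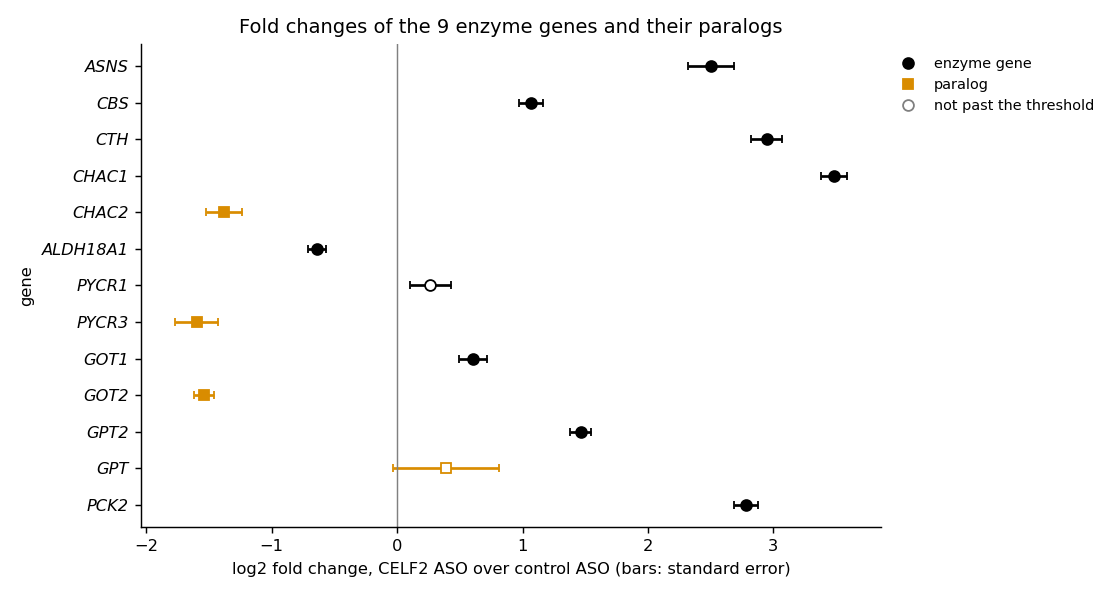
Log2 fold changes (CELF2 ASO over control ASO, bars for the standard error of the edgeR fit) of the 9 enzyme genes, as circles, and of the paralogs CHAC2, PYCR3, GOT2 and GPT, as squares; open symbols did not pass the threshold. CHAC1 and GOT1 lie right of 0 and their paralogs CHAC2 and GOT2 left of it, as does PYCR3.

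The aspartate aminotransferases split by compartment. GOT1 (cytosolic aspartate aminotransferase, ENSG00000120053, chromosome 10, 99396870 to 99431569, minus strand) had 95.9 and 120 CPM with the CELF2 ASO against 71.1 and 70.7 CPM with the control. It rose 1.52-fold (log2 fold change 0.60, standard error 0.11, edgeR adjusted p = 0.00242), and it was the one gene of the 9 that was higher in CELF2_LNA_ASO replicate 2 than in replicate 1. In GENCODE 29, 19.3% of its exon bases are shared with a long noncoding RNA gene on the other strand, ENSG00000224934, which had 47 and 32 counts with the CELF2 ASO and 12 and 20 with the control. GOT2, the mitochondrial enzyme, fell, with 176 and 159 CPM under the CELF2 ASO and 487 and 486 CPM under the control (log2 fold change -1.54, standard error 0.08, edgeR adjusted p = 1.05e-05). Per kilobase, GOT1 was at 0.609 and 0.845 of GOT2 with the CELF2 ASO and at 0.163 and 0.163 with the control. GOT2 was the more abundant of the pair in each library.

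GPT2 (mitochondrial alanine aminotransferase, ENSG00000166123, chromosome 16, 46884378 to 46931297, plus strand) had 234 and 215 CPM with the CELF2 ASO against 78.1 and 85.1 CPM with the control. It rose 2.75-fold (log2 fold change 1.46, standard error 0.08, edgeR adjusted p = 1.35e-05). The cytosolic enzyme gene GPT was scarce, with 44 and 16 counts with the CELF2 ASO and 23 and 22 with the control, and its change missed the threshold (edgeR adjusted p = 0.462). PCK2 (mitochondrial phosphoenolpyruvate carboxykinase, ENSG00000100889, chromosome 14, 24094053 to 24110598, plus strand) had 187 and 166 CPM with the CELF2 ASO against 24.7 and 26.7 CPM with the control. It rose 6.88-fold (log2 fold change 2.78, standard error 0.09, edgeR adjusted p = 3.68e-06). PCK1, the cytosolic form known from liver and kidney, had 3 and 1 counts with the CELF2 ASO and 14 and 1 with the control and was too low to test. NRL lies across PCK2 on the other strand, but their exons share no base in GENCODE 29.

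**Figure D3:**
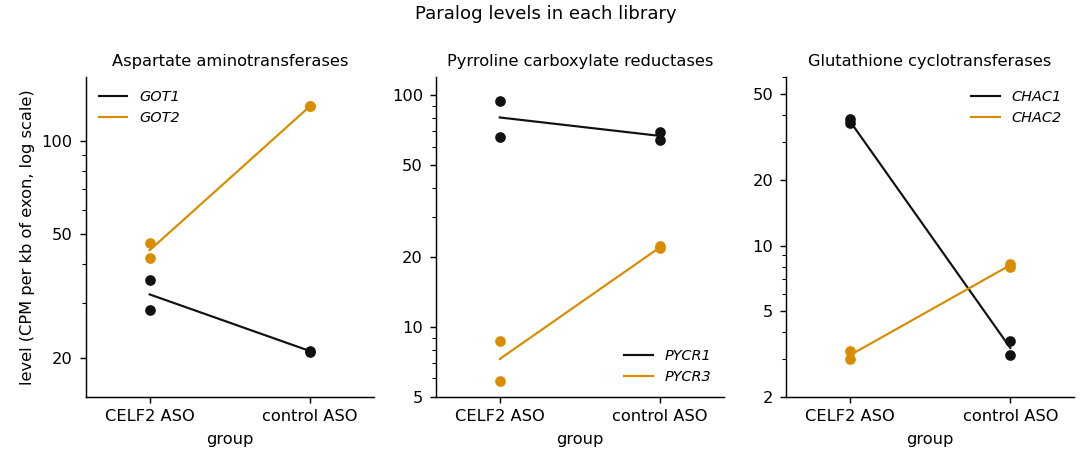
Levels of the aspartate aminotransferase, pyrroline carboxylate reductase and glutathione cyclotransferase genes in CPM per kilobase of exon on log axes, each point 1 library and each line joining the group means, with the CELF2 ASO on the left and the control ASO on the right. The lines of CHAC1 and CHAC2 cross, and GOT1 and GOT2 lie closer together with the CELF2 ASO.

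These paralog contrasts rest on 2 libraries per group. For the log2 ratio of a gene to its paralog, the exact two-sided permutation test over the 4 libraries cannot go below p = 0.333. That value was reached by each of the 6 pairs given here (GOT1 with GOT2, GPT2 with GPT, PCK2 with PCK1, PYCR1 with PYCR3, CHAC1 with CHAC2 and CBS with CBSL). The exact permutation p-values were not adjusted over the pairs, since none could pass the threshold.

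The order of the 9 genes by level per kilobase of exon differed between the groups. In the CELF2 ASO libraries it ran from PYCR1 (mean 80.4 CPM per kb, SD 19.6) through PCK2 (42.2, SD 3.53), CHAC1 (37.6, SD 1.24), GPT2 (35.4, SD 2.12), GOT1 (32.0, SD 5.00), ALDH18A1 (26.7, SD 1.4), CTH (12.9, SD 0.55) and CBS (5.99, SD 0.327) to ASNS (2.85, SD 0.438), n = 2 each. CHAC1 overlapped with GPT2 and GPT2 with GOT1, and no other neighbours overlapped. In the control libraries it ran from PYCR1 (66.9 CPM per kb, SD 3.96) through ALDH18A1 (41.6, SD 0.024), GOT1 (21.0, SD 0.0991), GPT2 (12.8, SD 0.779), PCK2 (6.14, SD 0.337), CHAC1 (3.36, SD 0.338), CBS (2.86, SD 0.178) and CTH (1.67, SD 0.129) to ASNS (0.505, SD 0.0567), n = 2 each, and no neighbours overlapped. PYCR1 had the highest and ASNS the lowest value of the 9 in both groups, with the level of ASNS uncertain because of the exons it shares with the readthrough gene. PCK2 and CHAC1 stood above ALDH18A1 and GOT1 with the CELF2 ASO and below both with the control. Lengths are the merged exons of all GENCODE 29 transcripts, which understates genes with long rarely used exons.

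Among factors known to bind such elements, mRNAs of ATF4, CEBPB and CEBPG were read, and these 3 rose. ATF4 had 1153 and 1270 CPM with the CELF2 ASO against 248 and 258 CPM with the control (log2 fold change 2.26, edgeR adjusted p = 4.19e-06). CEBPB had 39.0 and 43.0 CPM with the CELF2 ASO against 7.14 and 8.05 CPM with the control (log2 fold change 2.43, edgeR adjusted p = 7.4e-06). CEBPG had 55.4 and 61.8 CPM with the CELF2 ASO against 17.5 and 18.8 CPM with the control (log2 fold change 1.69, edgeR adjusted p = 1.31e-05). CEBPB and CEBPG encode C/EBP factors, a family that pairs with ATF4. For all 3 genes both CELF2 ASO libraries lay above both control libraries, which held for 41.2% of all tested genes. A rise past the threshold was seen in 27.5% of all tested genes. The 3 genes with the element in the window read here had log2 fold changes of 2.50 (ASNS), 3.48 (CHAC1) and 0.60 (GOT1). CTH, PCK2, CBS and ALDH18A1, whose windows lacked it, had 2.95, 2.78, 1.06 and -0.64. Whether the element had a part in these changes was not tested.

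Across 6 lists of 69 further genes, 59 were tested, of which 13 rose, 25 fell and 21 did not pass. Their median log2 fold change was -0.25. These shares are to be read beside the 27.5% and 27.9% of all tested genes that rose and fell.

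In the asparagine and aspartate list 2 of 7 tested genes rose and 4 fell (median log2 fold change -0.27). ASS1, which joins citrulline to aspartate on the way to arginine, rose, with 2800 and 2714 CPM with the CELF2 ASO against 336 and 358 CPM with the control (log2 fold change 2.99, edgeR adjusted p = 2.16e-06). ADSS1, an adenylosuccinate synthase that uses aspartate, rose by 1.21 on the log2 scale (edgeR adjusted p = 0.00373), and its paralog ADSS2 had -0.56 (edgeR adjusted p = 0.00186). ASRGL1, an asparaginase, stood at 0.974 and 0.837 CPM with the CELF2 ASO and 1.82 and 1.83 CPM with the control (log2 fold change -1.0, edgeR adjusted p = 0.0113). The asparaginase gene ASPG was too low to test.

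In the proline and ornithine list 1 of 7 tested genes rose and 4 fell, and the median was -0.47. Besides PYCR3, the fallers were P4HA2 (log2 fold change -1.91, edgeR adjusted p = 4.47e-05) and P4HA1 (-0.64, edgeR adjusted p = 0.00519), which hydroxylate proline in collagen-type chains, and PEPD, a peptidase that frees proline (-0.47, edgeR adjusted p = 0.0209). Of the genes that break proline down, ALDH4A1 did not pass (log2 fold change -0.03), and PRODH and PRODH2 had at most 2 counts in any library.

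In the transsulfuration and cysteine list 3 of 12 tested genes rose and 3 fell, and the median was 0.05. AHCY, which releases the homocysteine that CBS uses, had 262 and 219 CPM with the CELF2 ASO against 490 and 502 CPM with the control (log2 fold change -1.05, edgeR adjusted p = 9.72e-05). MTRR, which reactivates methionine synthase, had -0.48 (edgeR adjusted p = 0.00623), and did not pass when control_LNA_ASO replicate 1 was left out (adjusted p = 0.0629). CSAD, which directs cysteine toward taurine, rose by 0.86 on the log2 scale (edgeR adjusted p = 0.00135), and ETHE1, a mitochondrial sulfur dioxygenase, by 0.71 (edgeR adjusted p = 0.0409). TST, a sulfurtransferase, had -0.53 (edgeR adjusted p = 0.0129). BHMT, a betaine-dependent homocysteine methyltransferase, also passed (edgeR adjusted p = 0.00106), on 35 counts with the CELF2 ASO and 1 with the control. Their scaled ratio was 34.9, and its exact 95% interval, for counting error alone, ran over 5.86 to 1417. The list median was 0.05 also with BHMT at the lower end of that interval. BHMT stayed the highest tested gene of the list there, so the median could not have moved.

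In the glutathione list 3 of 12 tested genes rose and 5 fell, and the median was 0.08. The genes that make and reduce glutathione were lower or did not pass. GSS, glutathione synthetase, had 38.6 and 32.2 CPM with the CELF2 ASO against 77.8 and 79.9 CPM with the control (log2 fold change -1.15, edgeR adjusted p = 6.68e-05). GCLM and GSR had log2 fold changes of -0.58 and -0.52 (edgeR adjusted p = 0.00898 and 0.000842), and GCLC had 0.04 (edgeR adjusted p = 0.727). Genes listed for the breakdown of glutathione or its products were mixed. The gamma-glutamyltransferase family gene GGT7 rose (1.46, edgeR adjusted p = 0.000362). The dipeptidase gene DPEP1 rose from a low level (2.82, edgeR adjusted p = 6.18e-05, with 4.4 and 4.19 CPM with the CELF2 ASO against 0.536 and 0.682 CPM with the control). GGT1, LAP3 and CNDP2 did not pass (log2 fold changes 0.27, 0.55 and 0.11, edgeR adjusted p = 0.252, 0.0941 and 0.22). GGCT fell (-0.34, edgeR adjusted p = 0.0334), and OPLAH, which opens the 5-oxoproline that CHAC1 releases, rose (1.09, edgeR adjusted p = 0.0288). OPLAH was low and uneven, with 5.34 and 2.89 CPM with the CELF2 ASO against 1.54 and 2.39 CPM with the control.

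In the glutamate, glutamine and alanine list 4 of 13 tested genes rose and 2 fell, and the median was -0.01. BCAT1, the cytosolic branched-chain aminotransferase, had 27.3 and 28.6 CPM with the CELF2 ASO against 1.79 and 2.43 CPM with the control (log2 fold change 3.74, edgeR adjusted p = 5.78e-06), while its mitochondrial paralog BCAT2 had -0.97 (edgeR adjusted p = 0.000199). GFPT1, which spends glutamine on hexosamine synthesis, had 1.51 (edgeR adjusted p = 3.19e-05). ABAT, which transfers the amino group of GABA, also rose, on 48 and 38 counts with the CELF2 ASO and 10 and 3 with the control (edgeR adjusted p = 0.00104). PPAT, which spends glutamine on purines, had -0.44 (edgeR adjusted p = 0.00265). The glutamine synthetase gene GLUL did not pass (log2 fold change -0.01, edgeR adjusted p = 0.936).

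In the list of phosphoenolpyruvate, aspartate shuttle and anaplerosis genes none of 8 tested genes rose and 7 fell, and the median was -0.86. The malate-aspartate shuttle uses GOT1 and GOT2 with malate dehydrogenases and carriers. MDH1 and MDH2 had log2 fold changes of -0.75 and -0.54 (edgeR adjusted p = 9.89e-05 and 0.000478). The carriers SLC25A13 and SLC25A11 had -1.44 and -1.0 (edgeR adjusted p = 3.94e-05 and 5.43e-05), and SLC25A12 had -0.13 (edgeR adjusted p = 0.229). PC, one of the enzymes that make oxaloacetate, had 6.35 and 5.11 CPM with the CELF2 ASO against 15.0 and 14.2 CPM with the control (log2 fold change -1.35, edgeR adjusted p = 0.000202). The malic enzyme genes ME2 and ME1 had -0.96 and -0.37 (edgeR adjusted p = 4.71e-05 and 0.00632). Of the genes tied to the shuttle in these lists, GOT1 was thus the one that rose.

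**Figure D4:**
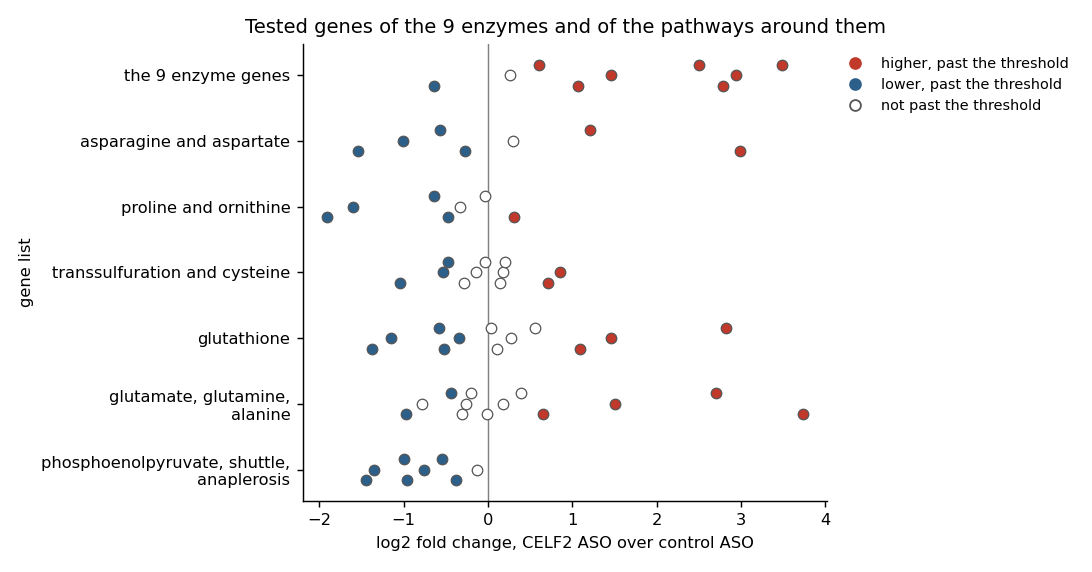
Log2 fold changes (CELF2 ASO over control ASO) of the tested genes among the 9 enzymes and in 6 lists of other genes of their pathways, 1 point per gene, red where higher and blue where lower past the threshold, open where not past it; BHMT is left out since it had 1 control count. Most of the 9 enzyme genes lie right of 0 and every tested gene of the phosphoenolpyruvate and shuttle list lies left of it.

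Likeness was measured as the distance between log2 CPM profiles centred over the 4 libraries, among 11933 genes with a symbol and a mean log2 CPM of at least 1. Nearest to ASNS were HOXB9 (distance 0.136), FBP1 (0.152), STC2 (0.168) and LINC02604 (0.201). Nearest to CHAC1 were ESRP1 (0.256), ADM2 (0.288), HRK (0.292) and BCAT1 (0.293). Among the 9 enzymes, PCK2 was nearest to ASNS (0.35) and CTH nearest to CHAC1 (0.55). The distance rests on 4 libraries and includes the difference between the groups.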

How the data were processed

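The values used are read counts per gene, deposited by the authors as 1 table of whole numbers with no normalization that the values show. The tools listed, per the submitters' processing notes, are STAR 2.7.11b, featureCounts 2.0.8 (with Subread), Salmon 1.10.0 and bcl2fastq, with the build GRCh38 and no roles stated. Strand setting, annotation release and handling of reads shared between genes are each not given in the sources used here. The labels name both poly(A) selection and removal of ribosomal RNA. Of 79029 rows, 97 spike-in or reporter rows were left out, with 1 to 3 counts per library. Symbols came from a name table and from GENCODE 29, which also gave positions and exon lengths.

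The test was run with edgeR 4.0.16 under R 4.3.3. Genes with low counts were removed with filterByExpr (minimum count 10, minimum total 15). TMM scaling was applied, and groups were compared by the two-sided robust quasi-likelihood test with no covariate, over all genes at once, with Benjamini-Hochberg adjustment and a threshold of 0.05. Standard errors are the absolute log2 fold change over the square root of F. CPM uses the TMM-scaled library sizes. The same code was tested on simulated counts. Alternatives were RLE scaling, library totals alone, other filters, DESeq2 1.42.0, limma-voom in limma 3.58.1, a block on the label's number, leaving out each library, and adding the rows of overlapping copies. Total counts were 23599190 to 29161298 per library. Genes named are the 9 enzymes, CELF2, ATF4, CEBPB and CEBPG, the paralogs, the 2 smallest adjusted p in each direction of each list, other list members with their values, and the 4 genes nearest to ASNS and to CHAC1. Members, lists and tests were chosen with earlier results of these data known. The plasma cell markers and the overlapping genes of ASNS, GOT1 and PCK2 were named after their values were seen. Some genes of the lists and paralog pairs are not reported here, though counts over a list include them.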

Additional observations from a re-analysis of the deposited data

How the results depend on the processing

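The 9 enzyme genes gave 7 rises and 1 fall under RLE scaling, library totals alone, both other filters, DESeq2, limma-voom, the replicate block and without any 1 library, except that 8 rose without CELF2_LNA_ASO replicate 2, where PYCR1 passed (0.48). Leaving out 1 library left 8 to 9 of the enzyme genes, 33 to 50 of the further pathway genes and 8602 to 12189 of all genes past the threshold, against 8, 38 and 10823 with all 4. PYCR1 changed sign without CELF2_LNA_ASO replicate 1 (-0.0012), as did GPT (-0.38) and CBSL (-0.0293, with 0.796 without CELF2_LNA_ASO replicate 2), none of which passed there or with all 4 libraries. GPT passed without CELF2_LNA_ASO replicate 2 (0.84), and MTRR did not without control_LNA_ASO replicate 1 (-0.44). Each fit without 1 library takes its spread from the pair left whole. That spread was wider in the CELF2 ASO pair (biological coefficient of variation 13.7%) than in the control pair (3.64%). The cause of these changes was not tested. Alternative fits were read gene by gene for only some list genes. Named genes not read this way include ASRGL1, P4HA1, PEPD, ALDH4A1, ETHE1, TST, GCLC, GCLM, GSR, GGCT, OPLAH, GGT1, LAP3 and CNDP2. The same holds for ABAT, GLUL, PC, MDH1, MDH2, SLC25A11, SLC25A12 and ME1. With DESeq2, 35 of the further pathway genes passed, against 38. With library totals alone the median of all tested genes moved to 0.16 from 0.04, with 6299 higher and 4530 lower against 5372 and 5451. Libraries with the same label number did not clearly deviate together (correlation 0.034), so the number may not pair them. With the replicate block 10809 genes passed, and all 9 enzyme genes kept their side of the threshold. Low counts limit the precision for ASNS, GPT, CBSL and PCK1.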
